A study of Mus musculus with 6 samples.

Results

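Transcripts of 9 ligands through which tumour cells engage inhibitory or costimulatory receptors of immune cells were followed in 3 mouse cancer cell lines: Cd274, Pdcd1lg2, Cd80, Cd276, Vtcn1, Cd47, Pvr, Nectin2 and Lgals9. They were found by gene symbol in the platform annotation. Each was represented by 1 probe set, and all 9 were among the 16797 genes tested, of 22180 genes that had a probe set with a single symbol. LLC is a Lewis lung carcinoma line, AE17 a malignant mesothelioma line and MC38 a colon adenocarcinoma line. For every line there was 1 array labelled sh Ctrl with the genotype wild type, and 1 labelled sh Spp1 with the genotype Spp1 depletion. Spp1 encodes osteopontin, a secreted glycoprotein. All cultures grew in DMEM with fetal bovine serum and received no further agent. Whether the controls carry a control hairpin, and whether the depleted cells are single clones, was not given in the sources used here. The annotation names Spp1 for 0 probe sets, so its own transcript was not analysed here and the direction of each comparison rests on the labels.

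Checkpoint ligands are surface or secreted proteins that tune the response of T cells, natural killer cells and macrophages to the cell that carries them. Cd274 (PD-L1) and Pdcd1lg2 (PD-L2) bind the inhibitory receptor Pdcd1 on activated T cells, and interferon-gamma is a well known inducer of Cd274. Cd80 binds both the costimulator Cd28 and the inhibitor Ctla4, Cd276 and Vtcn1 are B7 family proteins found on many tumours, and Cd47 signals to macrophages through Sirpa not to engulf the cell. Pvr and Nectin2 are adhesion molecules recognised by the inhibitor Tigit and the activator Cd226, and Lgals9 encodes galectin-9, a sugar-binding protein that is among the ligands reported for Havcr2.

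Promoters were read because several of these genes are known targets of inducible transcription factors. RefSeq windows from 250 bases before to 50 bases after a gene's start (build GRCm38.p6) were listed for 8 of the 9 genes. On both strands, GAAANNGAA, a core of the interferon-stimulated response element, was found in the windows of 2 genes, Cd274 and Lgals9, and in 8.56% of all 32851 windows. The gamma-activated site TTCNNNGAA, which overlaps it in part, was in none of the 8 genes and in 8.30% of windows, and the NF-kB form GGANTTTCC in none and in 1.25%. TGANTCA, a relaxed form of the AP-1 site with any middle base, was in those of Cd80 (TGATTCA) and Vtcn1 (TGAGTCA) and in 7.81% of windows. TATAAA was in 13.6% of windows and in that of Cd80, there past the start, at bases 5 to 10 on the opposite strand. The 250 bases before the start are shown for the 3 genes with a match there, because 2 of them, Cd80 and Lgals9, had the widest ratios below. They were picked after the matches and the values were seen. Capitals mark the matches to GAAANNGAA (read on the opposite strand) in Cd274 and Lgals9, and to TGANTCA in Cd80.
Cd274 (chr19:29367188-29367437, plus strand): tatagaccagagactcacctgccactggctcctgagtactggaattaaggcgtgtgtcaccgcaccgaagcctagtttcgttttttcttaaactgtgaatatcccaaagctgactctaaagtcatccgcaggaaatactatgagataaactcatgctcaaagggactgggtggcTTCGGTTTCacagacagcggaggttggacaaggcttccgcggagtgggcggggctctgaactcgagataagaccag
Lgals9 (chr11:78984925-78985174, minus strand): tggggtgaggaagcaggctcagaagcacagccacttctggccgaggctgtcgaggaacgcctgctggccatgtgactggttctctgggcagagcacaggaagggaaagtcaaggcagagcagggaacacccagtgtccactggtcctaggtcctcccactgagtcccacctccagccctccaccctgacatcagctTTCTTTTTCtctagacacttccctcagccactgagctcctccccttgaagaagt
Cd80 (chr16:38458683-38458932, plus strand): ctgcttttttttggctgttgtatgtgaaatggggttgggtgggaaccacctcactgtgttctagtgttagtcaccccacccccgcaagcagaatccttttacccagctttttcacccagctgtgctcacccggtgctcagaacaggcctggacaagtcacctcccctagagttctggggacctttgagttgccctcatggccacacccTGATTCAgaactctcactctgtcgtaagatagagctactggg

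The match in Cd274 spans bases -76 to -68 from the start, that in Cd80 -42 to -36, and those in Lgals9 -54 to -46 and 17 to 25, the latter beyond the stretch shown. A match is a description of these letters and no evidence that a factor binds.

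Levels are given as log2 intensities after quantile normalization, in which 1 unit is a 2-fold difference. They compare arrays for the same gene, and do not rank genes against each other. A brightness floor was set at 4.49, the 30th percentile of mean levels over all probe sets, and it is no detection limit. As a guide to the background, 8 markers of T, NK and B cells, which have no source in these cultures, read from 3.02 to 6.30 (Nkg7). Their median level was 4.65. The number of arrays limits the precision, since each line and hairpin has 1 array.

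The defining markers of immune cells were dim, and the arrays did not all carry the markers of their labelled tissue. Of the leukocyte and macrophage markers that define those cells, Ptprc (2.86 to 3.33) and Adgre1 (3.68 to 4.36) lay under the floor on all 6 arrays, and Csf1r (5.06 to 5.29) and Tyrobp (5.18 to 5.42) within the range of the lymphocyte markers. Above that range were Cd68 (6.51 to 8.71), Cd14 (6.26 to 7.42, not on every array) and Lyz2 on the AE17 sh Ctrl array (7.50). The mean level of the 10 macrophage and dendritic cell markers ran from 5.07 to 5.60 over the arrays, and that of the 5 leukocyte markers from 4.52 to 4.78. Epcam and Scgb1a1 lay under the floor on all arrays, the intestinal factor Cdx2 read 5.18 and 5.03 in MC38, no brighter than in the other lines, and the mesothelial Msln was at 9.87 and 9.96 in MC38 but at 5.13 and 5.34 in AE17. The other mesothelial markers, Upk3b, Wt1, Lrrn4 and Krt19, stayed between 4.28 and 5.83 on all arrays, within the range of the lymphocyte markers. The lung markers Sftpc (4.60 and 4.62) and Nkx2-1 (5.06 and 4.96) read within the range of the lymphocyte markers in LLC. The other intestinal markers, Cdx1, Vil1, Krt20 and Lgr5, read at most 5.13 in MC38. Krt20 was above that range on the AE17 sh Ctrl array (6.83), and at 3.79 on the AE17 sh Spp1 array. Among these mesothelial and intestinal markers, only Msln had both MC38 arrays above both AE17 arrays. This 1 gene does not decide what AE17 and MC38 are, and these names stand below for the arrays as labelled. The sh Ctrl and sh Spp1 arrays of AE17 correlated across probe sets at r = 0.939, against 0.979 in LLC and 0.982 in MC38, and probe sets are not independent replicates.

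**Figure D1:**
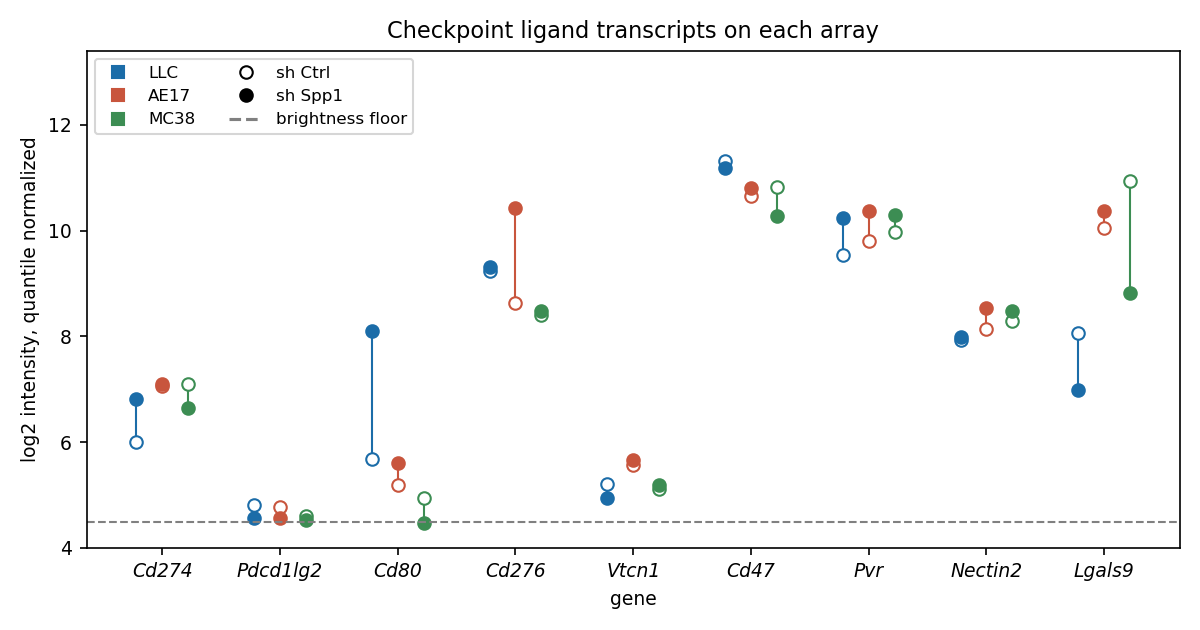
Level of the 9 checkpoint ligand transcripts on each of the 6 arrays (log2 intensity after quantile normalization, y axis), with open circles for sh Ctrl, filled circles for sh Spp1 and the floor at 4.49 as a dashed line. Pdcd1lg2 sits on the floor in every line, Cd80 exceeds the highest lymphocyte marker reading (6.30) only on the LLC sh Spp1 array (8.10), and Lgals9 spans from 6.99 to 10.95.

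Cd274 was measured at 6.0 and 6.81 on the LLC arrays (sh Ctrl, then sh Spp1), 7.06 and 7.10 on those of AE17, and 7.09 and 6.64 on those of MC38. The sh Ctrl array of LLC was the low one, and the other 5 arrays lay close together. The log2 ratio of sh Spp1 to sh Ctrl came to 0.81 for LLC, 0.04 for AE17 and -0.45 for MC38, a 1.76-fold higher level in LLC and a 1.37-fold lower one in MC38. In bulk RNA, fewer cells with the transcript and less of it per cell cannot be told apart. Over the lines the mean ratio was 0.13 ± 0.64 (SD, n = 3 lines), with a 95% interval from -0.62 to 0.89 and an adjusted p of 0.896 in limma. The LLC value varied with the scaling. In the values as deposited it was 0.14, or 0.61 above the median of all genes, and the mean over lines turned to -0.07. After median centring of the arrays it was 0.93, again 0.61 above the median of all genes, and the mean over lines was 0.40.

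Pdcd1lg2, the second ligand of Pdcd1, read 4.82 and 4.57 for LLC, 4.78 and 4.56 for AE17, and 4.61 and 4.52 for MC38. All 6 values lay within 0.33 log2 units above the floor and inside the range of the lymphocyte markers, so its ratios of -0.25, -0.22 and -0.08 compare readings at background. The mean was -0.18 ± 0.09 (SD, n = 3 lines), with an interval from -0.62 to 0.25.

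Cd80 was highest on the sh Spp1 array of LLC, at 8.10 against 5.69 on its control. In AE17 it read 5.18 and 5.60, and in MC38 4.94 and 4.47, the last under the floor. Thus a single array stood clear of the range of the lymphocyte markers. The ratio in LLC was 2.41, or 5.30-fold, the 9th highest of 17054 genes that reached the floor on at least 1 LLC array, and in the values as deposited it was 1.89. The ratios were 0.42 in AE17 and -0.47 in MC38, both between levels within the range of the lymphocyte markers. The mean over lines was 0.79 ± 1.47 (SD, n = 3 lines), with an interval from -0.73 to 2.30 and an adjusted p of 0.731. Without LLC the mean was -0.02. Cd80 is best known in antigen-presenting cells. Of 10 macrophage and dendritic cell markers, 6 had a ratio above 0 in LLC and 0 reached 1 log2 unit, and their mean level was 5.23 on the sh Ctrl array and 5.30 on the sh Spp1 array. Cd68 had a ratio of 0.92, and Itgax, Itgam, Csf1r and Tyrobp had -0.22, 0.10, 0.22 and 0.22. Their part in the Cd80 ratio was not tested.

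Cd276 stood out in AE17, where it went from 8.64 on the sh Ctrl array to 10.43 on the sh Spp1 array, a ratio of 1.79 or 3.46-fold. In LLC it read 9.24 and 9.32 and in MC38 8.41 and 8.48, with ratios of 0.07 and 0.08. The AE17 sh Spp1 array was thus the highest of all 6 and its control lay between the other lines. The mean over lines was 0.65 ± 0.99 (SD, n = 3 lines), with an interval from -0.42 to 1.71 and an adjusted p of 0.723, and 0.08 without AE17. In AE17, 9.90% of genes were higher by at least 1 log2 unit, and 3.91% had a ratio at least as high as that of Cd276. Of 4 fibroblast markers 2 were above 0 on the same pair, Col1a1 at 5.09 (from 6.87 to 11.96) and Dcn at 0.11, while Pdgfra had -1.14 and Thy1 -0.49. Their mean level was 7.14 on the sh Ctrl and 8.03 on the sh Spp1 array, and their part in the Cd276 ratio was not tested.

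Vtcn1, the other B7 family member, read 5.20 and 4.94 for LLC, 5.57 and 5.67 for AE17, and 5.10 and 5.18 for MC38. Every value lay within the range of the lymphocyte markers, and the ratios were -0.26, 0.09 and 0.08. The interval of the mean, from -0.50 to 0.44, does not reach 1 log2 unit in either direction.

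Cd47 was bright in every line, at 11.31 and 11.19 for LLC, 10.65 and 10.80 for AE17, and 10.82 and 10.27 for MC38. Both LLC arrays lay above all arrays of the other lines. Its ratios were -0.12, 0.15 and -0.54, and the mean was -0.17 ± 0.35 (SD, n = 3 lines), with an interval from -0.72 to 0.38. The sign of that mean turned with the scaling, to 0.12 in the deposited values and to 0.59 after median centring of the arrays.

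Pvr was higher with sh Spp1 in all 3 lines. LLC went from 9.54 to 10.24, AE17 from 9.80 to 10.37 and MC38 from 9.97 to 10.29. Of all genes tested, 16.8% were likewise higher in all 3 lines. The ratios were 0.69, 0.57 and 0.33, or 1.62-fold, 1.48-fold and 1.25-fold, and the mean was 0.53 ± 0.19 (SD, n = 3 lines), with an interval from 0.07 to 0.99. Pvr was the 1 ligand with an unadjusted p under 0.05, a threshold that 6.05% of all genes passed. After adjustment it did not pass in limma (adjusted p = 0.723). In the values as deposited the ratios were 0.81, 0.73 and 0.72, and leaving out a line in turn gave means from 0.45 to 0.63.

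Nectin2, which shares the receptors of Pvr, read 7.94 and 7.99 for LLC, 8.14 and 8.53 for AE17, and 8.28 and 8.49 for MC38. Its ratios of 0.05, 0.39 and 0.20 gave a mean of 0.22 ± 0.17 (SD, n = 3 lines), with an interval from -0.24 to 0.67 and an adjusted p of 0.741. In the values as deposited the LLC ratio was -0.20, although 0.26 above the median of all genes.

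Lgals9 had the largest range among the 9 genes over the arrays. Its level was 10.95 on the MC38 sh Ctrl array and 8.82 on the sh Spp1 array, a ratio of -2.12, or 4.35-fold lower. The LLC arrays read 8.07 and 6.99, a ratio of -1.08, or 2.11-fold lower, and those of AE17 10.04 and 10.37, a ratio of 0.33. Both sh Spp1 values of LLC and MC38 thus lay under their controls, and AE17 lay between the MC38 arrays. These are single pairs of arrays with no test. The MC38 ratio was the 57th lowest of 17014 genes, and in the values as deposited it was -1.70. The mean over lines was -0.96 ± 1.23 (SD, n = 3 lines), with an interval from -2.24 to 0.33 and an adjusted p of 0.723. Without AE17 the mean was -1.60, and without MC38 -0.37.

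**Figure D2:**
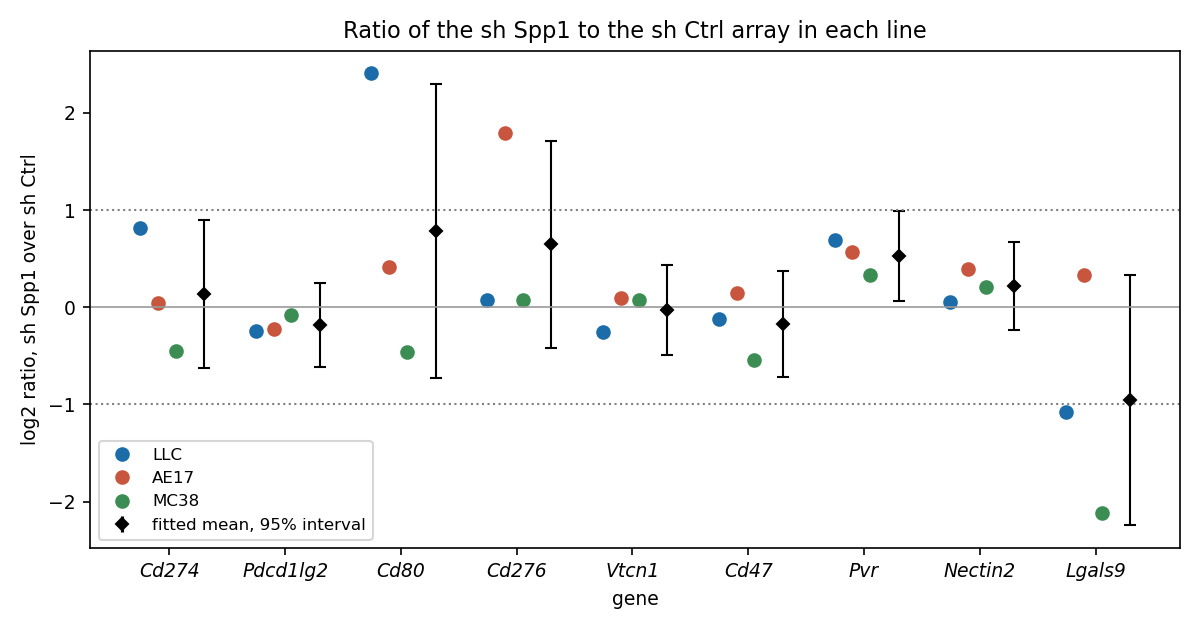
Log2 ratio of the sh Spp1 to the sh Ctrl array (y axis) for each ligand in LLC, AE17 and MC38 (coloured points), with the fitted mean and its 95% interval (black diamonds and bars), and dotted lines at 1 log2 unit. The interval of Pvr, from 0.07 to 0.99, lies above 0, and the points past 1 log2 unit are Cd80 in LLC, Cd276 in AE17, and Lgals9 in LLC and MC38.

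Counted over the 3 lines with limma and the line as a block, 0 of the 9 ligands and 0% of all genes reached an adjusted p under 0.05. The p-values measure the spread between lines, since no line has a second culture. Within lines, 1 ligand was higher by at least 1 log2 unit in LLC (Cd80, against 1.75% of genes) and 1 lower (Lgals9, against 1.81%). In AE17, 1 was higher (Cd276, against 9.90% of genes) and 0 were lower (8.71%), and in MC38 0 were higher (0.882%) and 1 lower (Lgals9, against 1.70%). The median ratio of the ligands came to 0.05 for LLC, 0.33 for AE17 and -0.08 for MC38, beside medians of 0.03, -0.04 and 0.02 over all genes that reached the floor. Cd276, Pvr and Nectin2 were higher in each line, 3 of 9 where 16.8% of genes were (Nectin2 in LLC not in the deposited values), and Pdcd1lg2 lower in each, 1 of 9 where 15.5% of genes were.

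The scaling of the arrays moved these values. As deposited, all genes tested had a median ratio of -0.46 (LLC), -0.23 (AE17) and 0.08 (MC38), and after median centring of the arrays one of 0.33, 0.22 and 0.26. In the deposited values Cd80 turned to -0.03 in AE17, and Vtcn1 to -0.30 in AE17 and -0.13 in MC38. The ratio of Pvr relative to that median was 0.67, 0.61 and 0.31 in LLC, AE17 and MC38 after quantile normalization, and 1.28, 0.96 and 0.64 in the values as deposited. For Cd276 in AE17 these relative ratios were 1.83 and 2.23, for Cd80 in LLC 2.38 and 2.35, and for Lgals9 in MC38 -2.14 and -1.78. The identity of the ligands past 1 log2 unit also changed. As deposited, Pdcd1lg2 and Vtcn1 joined in LLC at -1.08 and -1.08. Quantile-normalized levels of both lay within the range of the lymphocyte markers. With arrays centred, Pvr joined in LLC and AE17 at 1.60 and 1.18, while Lgals9 in LLC had -0.65.

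**Figure D3:**
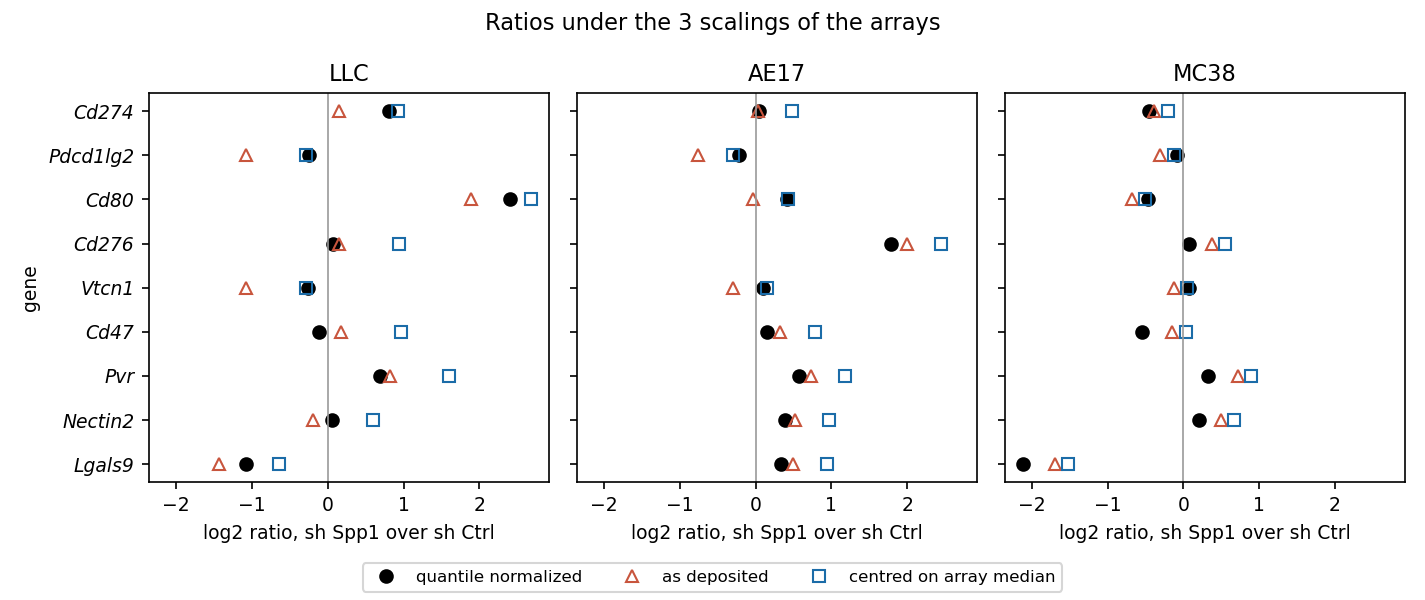
Log2 ratio of sh Spp1 to sh Ctrl (x axis) of each ligand in LLC, AE17 and MC38 under quantile normalization, as deposited and after median centring of the arrays. Cd80 in LLC (lowest 1.89), Cd276 in AE17 (lowest 1.79) and Lgals9 in MC38 (nearest to 0 at -1.52) keep their sign, while Cd47 changes sign in LLC and MC38.

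The second comparison set the lines against each other, and asked which ligands distinguish the lines as labelled. Each line has 2 arrays that differ in hairpin, so the error holds the line's own response to it. Lgals9 was lower on both LLC arrays than on the other 4: its mean level was 7.53 for LLC, 10.21 for AE17 and 9.88 for MC38, differences of 2.68 (95% interval 1.10 to 4.26) and 2.36 (0.78 to 3.93), or 6.40-fold and 5.12-fold. Neither passed the adjusted threshold of limma, at adjusted p = 0.288 and 0.278. The difference between MC38 and LLC comes from those lines' arrays alone, so the fits with an AE17 array left out cannot change it. No call is drawn from those fits, since 1 AE17 array remains and the error holds only the LLC and MC38 pairs. AE17 and MC38 overlapped.

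Cd80 had its higher levels in LLC, with a mean of 6.89 against 5.39 in AE17 and 4.71 in MC38. The difference of MC38 from LLC was -2.19 (interval -4.04 to -0.33, adjusted p = 0.367 in limma), and ran from -3.40 without the LLC sh Ctrl array to -0.97 without the LLC sh Spp1 array. Without that array the LLC control at 5.69 and both AE17 arrays lay within the range of the lymphocyte markers. Cd47 was also lower in MC38 than in LLC, by -0.70 (interval -1.37 to -0.04, adjusted p = 0.415, and -0.42 without the MC38 sh Spp1 array), and in AE17 than in LLC by -0.53 (interval -1.20 to 0.14). These 2 genes and Lgals9 were the 3 of 9 ligands at an unadjusted p under 0.05 between MC38 and LLC, where 11.5% of genes were. Lgals9 was the 1 ligand at that threshold between AE17 and LLC (12.8% of genes), and 0 were between MC38 and AE17 (13.2%).

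For Cd276 the order was AE17 (mean 9.53), LLC (9.28) and MC38 (8.44), and both MC38 arrays lay below the other 4. The difference of MC38 from AE17 was -1.09 (interval -2.39 to 0.22, adjusted p = 0.435 in limma). It was -1.94 without the AE17 sh Ctrl array and -0.23 without the AE17 sh Spp1 array. Those fits keep 1 AE17 array, so their error holds only the LLC and MC38 pairs, and no call is drawn from them. Cd274 had means of 7.08 in AE17, 6.87 in MC38 and 6.40 in LLC, and only AE17 and LLC did not overlap, with a difference of 0.68 (interval -0.25 to 1.61). That difference was 0.17 without the LLC sh Ctrl array and 1.19 without the LLC sh Spp1 array. Nectin2 was lower on both LLC arrays than on the others, by 0.42 against MC38 and 0.37 against AE17, with intervals that include 0. Pvr had means of 9.89, 10.08 and 10.13 in LLC, AE17 and MC38, its arrays overlapped in each pair of lines, and its intervals reached 0.81 log2 units. For Pdcd1lg2 the levels lay near the floor in every line. Vtcn1 stayed within the range of the lymphocyte markers, with both AE17 arrays above the other 4. Its difference of AE17 from LLC was 0.55 (interval -0.03 to 1.12) and that of MC38 from AE17 -0.48 (-1.05 to 0.10).

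By the fitted test 0% of genes passed in each of the 3 contrasts between lines, and 0 of 9 ligands. In pairs of lines without overlap there were 5 of 9 ligands for MC38 and LLC (49.1% of genes), 6 for AE17 and LLC (41.6%) and 3 for MC38 and AE17 (43.4%). Those counts lie near the shares of all genes for 2 of the pairs, and say nothing particular to the ligands.

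Genes that carry the interferon-gamma signal or are known to regulate Cd274 were followed beside it, as a list of 30 of which 26 were tested. Over the lines 0 passed after adjustment in limma, and at an unadjusted p under 0.05 there were 1 higher (Socs1) and 2 lower, where 6.05% of all genes passed. Those 2 were Ifngr1, a chain of the interferon-gamma receptor, with a mean ratio of -0.51, and Cdk5, a kinase, with -0.77, both named after their values were seen. Their median ratio came to 0.06 for LLC, -0.15 for AE17 and -0.14 for MC38. In AE17 5 of the 26 were higher by at least 1 log2 unit (9.90% of all genes) and 4 lower (8.71%). The higher were Egfr, Socs1, Socs3, Nlrc5 and Irf7, from 2.47 to 1.18, and the lower Hif1a, Jak2, Cop1 and Cmtm6. In LLC 0 were higher (1.75%) and 1 lower, Cdk5 at -1.01 (1.81%). In MC38 3 were lower (1.70%) and 0 higher (0.882%). Those 3 were Irf7, an interferon-induced transcription factor, which went from 9.79 to 6.11, a ratio of -3.68, and Stat2 and Irf9, partners in the interferon-activated complex ISGF3, at -2.08 and -1.82. Irf1, which induces Cd274, had -0.90 there, beside -0.45 for Cd274 and -2.12 for Lgals9.

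In LLC Cd274 and Lgals9 had ratios of opposite sign. Irf7, Stat2 and Irf9 had 0.06, -0.09 and 0.11, and Irf1 -0.87, while Cd274 had 0.81 and Lgals9 -1.08. In AE17 Irf7, Irf9, Irf1 and Stat2 had 1.18, 0.94, 0.91 and 0.17, with Cd274 at 0.04 and Lgals9 at 0.33. What part the interferon genes have in the ratios of either ligand was not tested. By mean ratio the highest of the list were Socs1, a feedback inhibitor of interferon signalling, at 0.87 ± 0.72 (SD, n = 3 lines), and Socs3 at 0.52 ± 0.96, and the lowest Irf7 at -0.81 ± 2.55 and the hypoxia factor Hif1a at -0.82 ± 0.95. Without AE17 the means were 0.45 for Socs1, -0.035 for Socs3, -1.81 for Irf7 and -0.27 for Hif1a. After median centring Hif1a had -0.12, Irf7 -0.50 and Socs3 0.87. The other genes of the list named here were picked out after their values were seen.

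**Figure D4:**
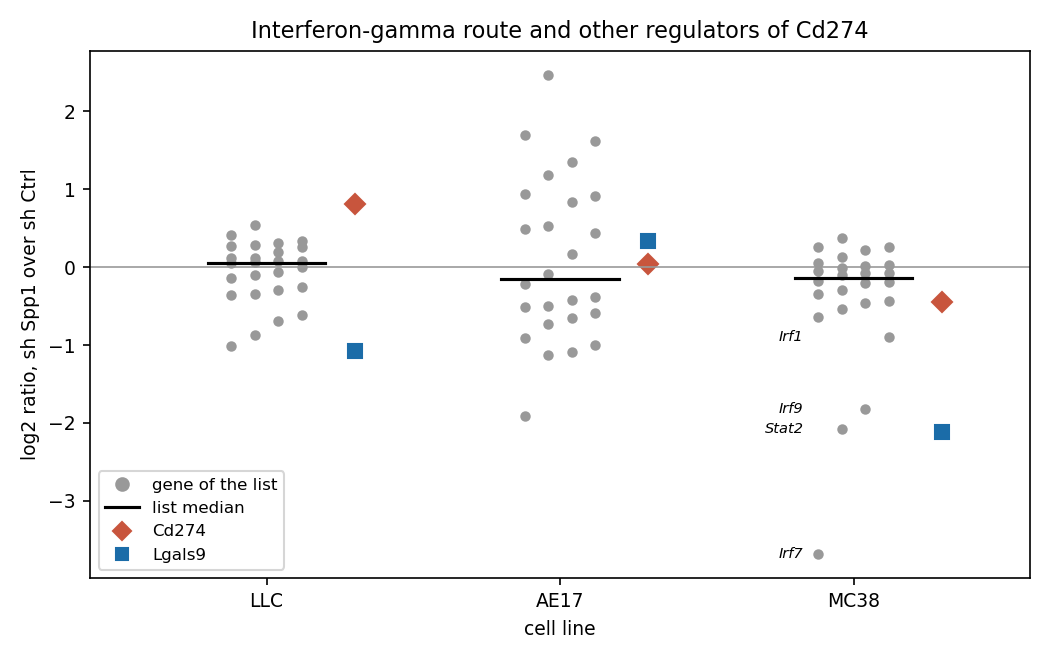
Log2 ratio of sh Spp1 to sh Ctrl (y axis) in LLC, AE17 and MC38 for 26 genes of the interferon-gamma route and other regulators of Cd274 (grey points, black bar at their median), with Cd274 as diamonds and Lgals9 as squares. In MC38 Irf7 (-3.68), Stat2 (-2.08) and Irf9 (-1.82) lie apart from the rest, on the same side as Lgals9 (-2.12).

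The 5 genes whose levels followed those of Cd274 most closely over the 6 arrays, among 4005 genes with an SD of at least 0.5, were Avpi1 (Pearson r = 0.878), Hebp2 (0.874), Chn1 (0.865), Hoxa10 (0.861) and Ifi204 (0.855). The 6 points share 3 cell lines, and the values describe these arrays alone. All 5 had a ratio above 0 in LLC and under 0 in MC38, as Cd274 did. They were chosen by that likeness, so the shared direction is no separate result. Ifi204, an interferon-inducible gene picked out after its values were seen, read 9.98 and 6.46 in MC38 and 5.36 and 6.13 in LLC.

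Of 32 further ligands of T cell and natural killer cell receptors, 23 were tested and 0 passed after adjustment in limma. At an unadjusted p under 0.05 there were 0 higher and 1 lower of the 23, where 6.05% of all genes passed. That 1 was Vsir, which encodes the inhibitory B7 family protein VISTA, with ratios of -1.03, -2.15 and -0.61 in LLC, AE17 and MC38 (mean -1.26 ± 0.80, SD, n = 3 lines, adjusted p = 0.723). Tnfsf18, the ligand of the costimulator GITR, had -0.71 ± 2.06, with levels of 7.46 and 4.45 on the AE17 arrays. Cd24a, a surface glycoprotein, had 1.35 ± 2.85, and Tnfsf9, which encodes the ligand of the costimulator 4-1BB, 0.92 ± 1.36, both with their large ratio in AE17, at 4.64 and 2.44. Without AE17 the means were -0.82 for Vsir, 0.44 for Tnfsf18, -0.29 for Cd24a and 0.16 for Tnfsf9. The list's median ratio came to 0.02, 0.14 and -0.13 for LLC, AE17 and MC38.

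Among 17 genes that make or bind the partners of Cd47 and the sugar ligands of galectins, 16 were tested and 0 passed after adjustment, with 2 higher and 1 lower (St6gal1) at an unadjusted p under 0.05, where 6.05% of all genes passed. The 2 higher were Lrp1, an endocytic receptor, with a mean ratio of 0.57, and the glycan-branching enzyme Mgat4b with 0.59, both named after their values were seen. Mgat5, which builds the branched glycans that galectins bind, had a mean ratio of 1.25 ± 1.60 (SD, n = 3 lines), and Thbs1, a secreted ligand of Cd47, 0.73 ± 2.24, each with its large ratio in AE17 (3.09 and 3.26). Without AE17 these means were 0.33 and -0.53. St6gal1, whose sialylation masks galectin sites, was lower in each line, at -0.27, -0.49 and -0.73, but its mean of -0.50 was -0.063 after median centring, and its unadjusted call was lost there and in the deposited values. The galectin gene Lgals7 had a mean of -0.73 ± 1.46, and 0.10 without AE17. The median ratio was 0.12, 0.01 and 0.07 in LLC, AE17 and MC38.

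The receptors of the 9 ligands, which immune cells carry, served as a check. Of 10 listed, 9 had a probe set, and Pdcd1 (4.46 to 4.87), Ctla4 (3.51 to 4.16), Cd226 (3.78 to 4.33) and Cd96 (3.94 to 4.70) read at background on every array. Havcr2 (4.01 to 6.11) stayed within the range of the lymphocyte markers, and Cd28 exceeded it on the AE17 sh Ctrl array (6.91, and at most 5.54 elsewhere). Rgmb, a bone morphogenetic protein coreceptor that also binds Pdcd1lg2, was bright, from 8.41 to 10.56. Tigit, the receptor of Pvr and Nectin2, was listed at 7.95 and 8.53 in MC38 and from 4.56 to 6.20 in the other lines, although lymphocyte markers did not exceed 6.30. Sirpa, the receptor of Cd47, read 7.78 on the AE17 sh Spp1 array and at most 5.46 on the other 5.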

How the data were processed

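The deposited values are linear intensities of 1-colour whole-transcript arrays on biotin-labelled RNA, per the labels' protocols. RMA is named per the submitters' processing notes, and Genespring 12.5 in the series' design text. Medians ran from 26.6 to 64.2 between arrays, so the intensity values were log2 transformed and quantile normalized with limma 3.58.1 in R 4.3.3. Genes were named from the platform annotation (probe sets with 1 symbol, 23521 of 41345). The brightest probe set stood for a gene, and 16797 genes at or above the 30th percentile were tested. lmFit and eBayes used the line and the hairpin as terms, with Benjamini-Hochberg adjustment over all genes at 0.05 and 2 residual degrees of freedom. The line pairs the arrays, per the titles. Intervals come from the moderated fit. Within a line, genes were counted by 1 log2 unit when at least 1 array reached the floor. Members and lists were chosen with earlier results of these data known. Named are all members, the 2 highest and 2 lowest tested genes of each pathway list by mean ratio (receptors by level), the defining markers and the 5 genes most correlated with Cd274. The fit was tested on simulated data. Alternatives covered scaling, filter, probe sets, prior, weights, block, hairpin term, thresholds and each array or line left out. Figures used matplotlib 3.10.9 in Python 3.11.15.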

Additional observations from a re-analysis of the deposited data

Results flagged for a closer look

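Some ratios went opposite ways in 2 lines, with at least 1 of them past 1 log2 unit. Each line gives 1 pair of arrays, so these differences were not tested. Among the ligands they were Cd80, 2.41 in LLC and -0.47 in MC38, a difference of 2.87, and Lgals9, 0.33 in AE17 and -2.12 in MC38, a difference of 2.45. Among the pathway genes named by the rule of the highest and lowest mean ratios, the difference was 3.98 for Tnfsf18 (MC38 over AE17), 2.65 for Tnfsf9 (AE17 over LLC), 5.01 for Cd24a (AE17 over MC38), 4.86 for Irf7 (AE17 over MC38), 1.68 for Socs3 (AE17 over LLC), 2.75 for Lgals7 (MC38 over AE17) and 4.26 for Thbs1 (AE17 over LLC). Other genes of these lists also met the condition and are not given here, apart from Thbs2, named after its values were seen, with -2.28 in LLC and 4.27 in AE17.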

How the results depend on the processing

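The count of genes past the adjusted threshold between hairpins was 0 in limma under every alternative run, also without the line as a replicate block (0 genes), and the block changed no call of a ligand. Between MC38 and LLC it was 225 as deposited, 42 with the floor at the 50th percentile, 44 with no filter, 50 with a trended robust prior, 474 with array weights, 89 without the hairpin term, 112 at an adjusted p under 0.10, and 0 to 1032 with an array left out. Between AE17 and LLC it was 103 as deposited, 1 with the trended prior, 9 without the hairpin term and 0 to 1443 with an array left out. Between MC38 and AE17 it was 287, 27 at the 50th percentile, 1 with the trended prior, 100, 125 at 0.10, and 0 to 1157. The high counts arose without an AE17 array (1032, 511 and 1092 without 1 or the other).

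Mean ratios changed sign as deposited for Cd274 (-0.070) and Cd47 (0.12, and 0.59 centred), and with array weights for Tnfsf18 (0.17) and Thbs1 (-0.0033). Leaving out a line in turn gave mean ratios of -0.21 to 0.43 for Cd274, -0.024 to 1.41 for Cd80, -0.090 to 0.086 for Vtcn1, -0.33 to 0.015 for Cd47, -1.55 to 0.44 for Tnfsf18, -0.29 to 2.21 for Cd24a, -1.81 to 0.62 for Irf7, -0.035 to 0.81 for Socs3, -1.27 to 0.10 for Lgals7 and -0.53 to 1.60 for Thbs1.

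Between lines, the deposited values turned the difference of AE17 from LLC for Cd274 (-0.046), Cd276 (-0.37), Vtcn1 (-0.10), Pvr (-0.42) and Nectin2 (-0.28), and of MC38 from AE17 for Cd274 (0.44), Pdcd1lg2 (0.48), Vtcn1 (0.11), Cd47 (0.30) and Lgals9 (0.18). Median centring turned Pvr there (-0.017). With an array left out, the difference of MC38 from LLC ran from -0.044 to 0.97 for Cd274, -0.10 to 0.24 for Vtcn1 (-0.010 without MC38 sh Spp1) and 1.48 to 3.23 for Lgals9. With an array left out, the difference of AE17 from LLC ran from -0.075 to 0.019 for Pdcd1lg2, -0.61 to 1.11 for Cd276 (-0.18 without LLC sh Spp1) and 1.71 to 3.64 for Lgals9. With an array left out, the difference of MC38 from AE17 ran from -0.65 to 0.23 for Cd274, -1.62 to 0.25 for Cd80, -1.94 to -0.23 for Cd276, -0.46 to 0.10 for Cd47 (0.062 without AE17 sh Spp1), -0.10 to 0.20 for Pvr, -0.081 to 0.18 for Nectin2 and -1.29 to 0.64 for Lgals9 (0.55 without MC38 sh Spp1).

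Ligands past 1 log2 unit in LLC were 4 as deposited and 4 at a lower threshold, and in AE17 2 after centring. Pdcd1lg2 and Vtcn1 were not tested at the 50th percentile. The causes of these changes were not tested. With 1 array per line and hairpin, levels near the floor, as for Pdcd1lg2, carry no order. Those of Vtcn1 lay above the floor but within the range of the lymphocyte markers.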
